A study of Mus musculus with 6 samples.

Results

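The 5 genes of the neuronal intermediate filaments, Nefl, Nefm, Nefh, Ina and Prph, were followed by symbol in RNA sequencing of the cervical spinal cord of C57BL/6 mice. All 5 were found among the 54532 genes of the files, and all 5 were among the 21369 genes tested. The 3 ACD mice had allergic contact dermatitis from squaric acid dibutylester (SADBE), a contact allergen: 20 µl of 1% SADBE in acetone on the abdomen on 3 days and, after 5 days, the same on the nape on 3 days. The 3 control mice received acetone alone on the nape, and the labels leave unclear whether their abdomens were sensitised as well. Each library is taken as 1 mouse, since the design names 6 mice. The labels give no sex, age, or day of dissection.

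Neurofilaments are the space-filling polymers of axons and are most abundant in large myelinated ones, such as those of motor neurons. Nefl, the light chain, forms the core with Nefm, the medium chain, and Nefh, the heavy chain, whose long tails project sideways and are heavily phosphorylated. Ina, alpha-internexin, joins them in the central nervous system. Prph, peripherin, is found mainly in neurons that send axons out of the central nervous system, among them motor and sensory neurons.

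None of the 5 genes passed the test of ACD against control cords across all genes, where 4.34% of the genes tested passed, and in none of the 5 did the groups separate. None had an unadjusted p under 0.05 in the limma fit, where 22.3% of all genes did, and voom on reads recovered from the values called none of them and 7.24% of all genes. With 5 genes, counts of 0 are near these shares. The mRNAs of the 3 neurofilament chains were among the most abundant of the cord, at 284 to 530 FPKM (fragments divided by exon length in kilobases and by library size) in ACD libraries and 222 to 475 FPKM in control libraries. Their levels varied between mice, and those of Nefm and Nefh varied almost in step. Relative to one another the 5 genes also kept proportions that did not differ detectably between the groups.

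The heavy chain has a run of repeats in its coding sequence, shown beside its nearest counterpart in Nefm because this separates chains whose levels moved together. Capitals mark lysine-serine-proline codons read in frame on the coding strand (AAGTCNCCN or AAATCNCCN, other serine codons not searched), and such serines are where the tails are phosphorylated. Both stretches are 120 bases from GENCODE M21 transcripts (GRCm38), the Nefh one from chr11:4940938-4941057 and the Nefm one from chr14:68121063-68121182, both on the minus strand in coding exon. Each is the first stretch of its gene with the most such runs, coding bases 1561 to 1680 of Nefh and 1402 to 1521 of Nefm.
Nefh: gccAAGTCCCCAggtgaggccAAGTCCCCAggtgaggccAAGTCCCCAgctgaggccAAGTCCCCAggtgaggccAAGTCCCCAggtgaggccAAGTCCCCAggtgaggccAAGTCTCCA
Nefm: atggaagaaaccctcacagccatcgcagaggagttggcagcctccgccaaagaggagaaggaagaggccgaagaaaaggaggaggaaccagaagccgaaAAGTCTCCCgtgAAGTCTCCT
The Nefh stretch holds 7 runs and the Nefm stretch 2. Over the whole coding sequence Nefh has 49 such runs and Nefm 4, while Nefl, Ina and Prph have none. The Nefm stretch is instead rich in GAG and GAA, the codons of the acidic glutamate. These codons make up 21.1% of Nefm, against 17.9% of Nefl, 16.8% of Nefh, 13.6% of Ina and 13.02% of Prph.

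Where the genes lie bears on how their reads could be counted. In GRCm38, Nefh (ENSMUSG00000020396) is on chromosome 11 at 4938754 to 4948064, Ina (ENSMUSG00000034336) on chromosome 19 at 47014698 to 47025327 and Prph (ENSMUSG00000023484) on chromosome 15 at 99055174 to 99058978. Nefl (ENSMUSG00000022055) is on chromosome 14 at 68083863 to 68089095 on the plus strand, and Nefm (ENSMUSG00000022054) lies on the minus strand of the same region. Its main transcript, Nefm-201, has 3 exons of 3334 bases in all and is 30187 bases away from the end of Nefl. A longer annotated form, Nefm-202, reaches over Nefl to 68082590, and its exon 4 covers 1108 bases of exon 1 of Nefl on the opposite strand, from 68083863 to 68084970. These are 32.8% of the exon bases of Nefl. Whether strand was used in counting is not given in the sources used here, so reads there cannot be told apart if it was not. Likewise 14.1% of the exon bases of Ina overlap exons of Nt5c2, a nucleotidase gene on the opposite strand. No exon of another gene overlaps those of Nefh or Prph.

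**Figure D1:**
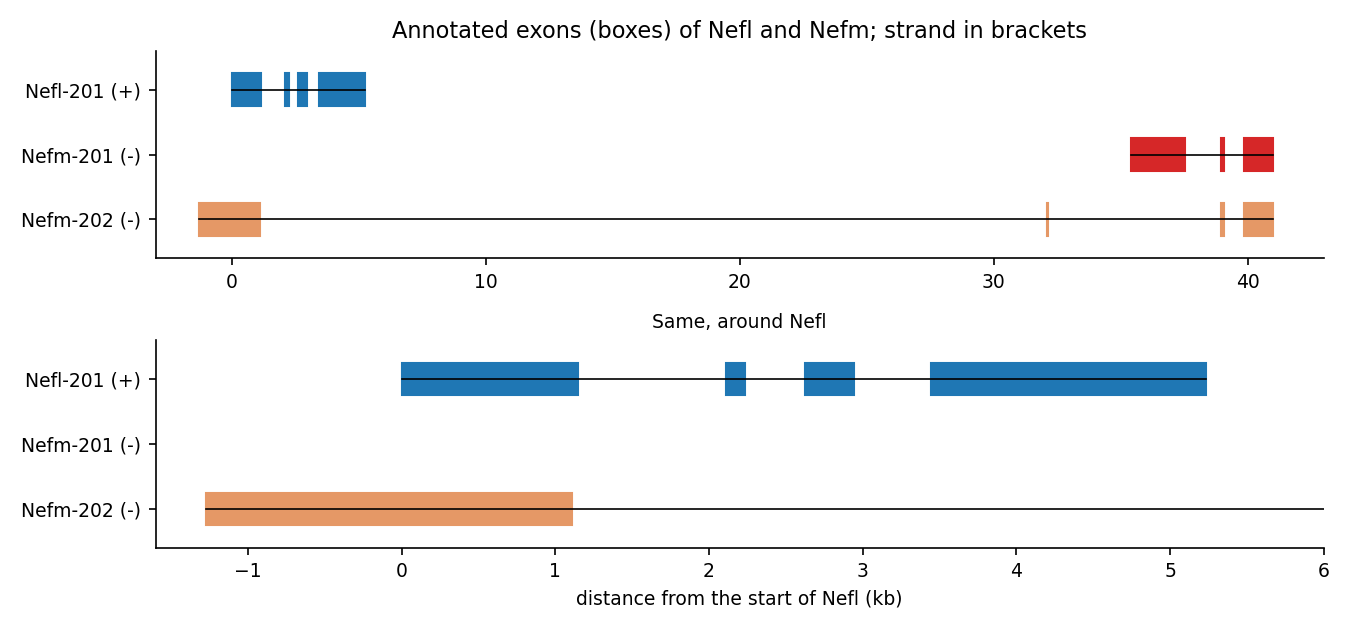
Exons (boxes) of Nefl-201, Nefm-201 and Nefm-202 against the distance from the start of Nefl in kb, the whole region above and the surroundings of Nefl below, with the strand in brackets. Exon 4 of Nefm-202 covers 1108 bases of the first exon of Nefl, while Nefm-201 does not reach it.

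The light chain Nefl had the highest FPKM of the 5 genes in each of the 6 libraries. It stood at 530, 483 and 423 FPKM in ACD cords 1 to 3, against 334, 440 and 475 FPKM in control cords 1 to 3. The top value was an ACD cord and the bottom one a control, with the other 4 interleaved. The means were 479 ± 53.6 FPKM in ACD and 416.5 ± 73.3 FPKM in control cords (SD, n = 3 each). The log2 fold change from limma was 0.21 with a 95% interval of -0.14 to 0.56 (adjusted p = 0.451). Among 15359 tested protein-coding genes it ranked 44 by its ACD mean and 38 by its control mean.

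Nefm, the medium chain, stood at 412, 339 and 333 FPKM in ACD cords, against 257, 324 and 426 FPKM in control cords. The lowest and the highest value were both controls, so the ACD range lay inside the control range. The log2 fold change was 0.13 with a 95% interval of -0.30 to 0.56 (limma, adjusted p = 0.714). Nefh, the heavy chain, stood at 341, 293 and 284 FPKM in ACD cords, against 222, 273 and 369.5 FPKM in control cords. It showed the same order of the 6 libraries as Nefm, with controls at both ends. Its log2 fold change was 0.11 with a 95% interval of -0.31 to 0.54 (limma, adjusted p = 0.751).

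Ina, the central nervous system partner, was less abundant, at 101, 105 and 107 FPKM in ACD cords, against 91.7, 85.0 and 114 FPKM in control cords. The ACD values lay close together, above 2 of the controls and below the third. Its log2 fold change was 0.12 with a 95% interval of -0.14 to 0.38 (limma, adjusted p = 0.555). Prph had the lowest level and varied most, at 48.6, 34.5 and 29.9 FPKM in ACD cords, against 23.2, 40.001 and 38.8 FPKM in control cords. An ACD cord was highest and a control lowest, a 2.10-fold span, with the others mixed. Its log2 fold change was 0.16 with a 95% interval of -0.45 to 0.77 (limma, adjusted p = 0.756).

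**Figure D2:**
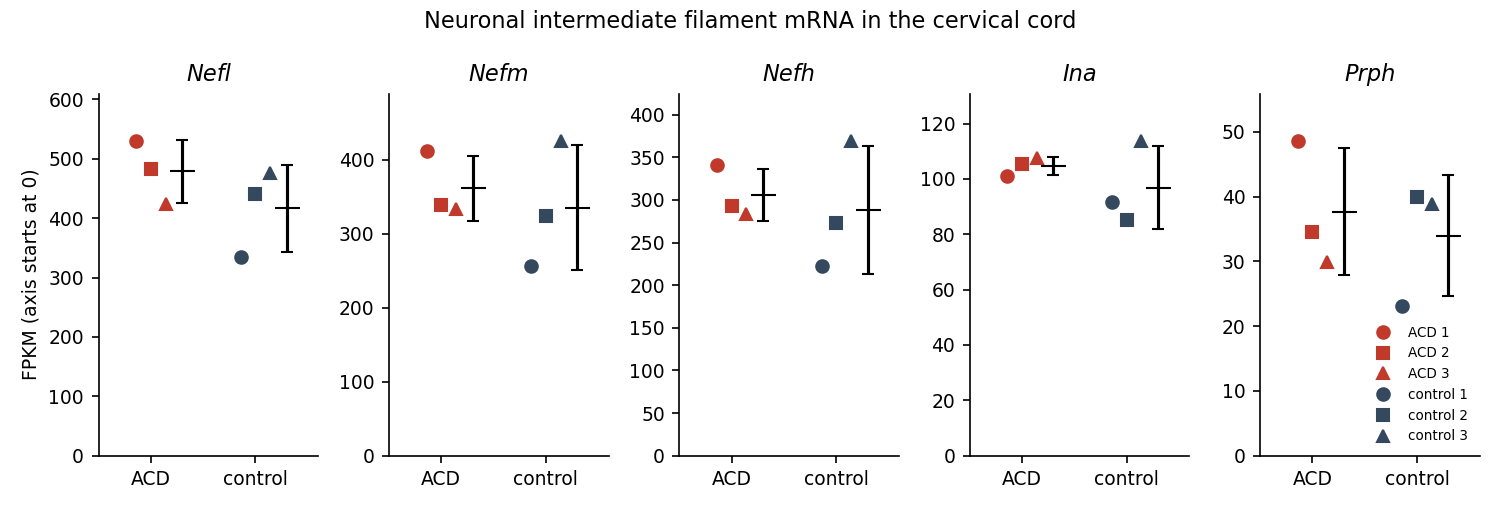
FPKM of the 5 genes in each library, ACD left and control right, with the mean ± SD of 3 libraries beside the points and each axis starting at 0. The groups overlap in every panel, and control 1 is the lowest library for Nefl, Nefm, Nefh and Prph.

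All 5 log2 fold changes were positive, as were most of those of abundant genes. Of the 4596 protein-coding genes that averaged 10 FPKM or more, 78.4% had a positive log2 fold change, with a median of 0.11, against a median of 0.13 for the 5 genes. After quantile normalization 4 of the 5 turned negative and Prph stayed positive. Control 1 was the lowest library for 4 of the 5 genes; without it Nefm, Nefh and Prph turned negative, at -0.05, -0.06 and -0.10, and without ACD 1 Prph stood at -0.04. No direction is therefore given for any of the 5 genes. Groups that do not overlap were seen for 28.6% of all genes tested and for 0 of these 5.

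The spread between libraries of a group was larger than counting error for each gene. Reads recovered from the steps of the FPKM values came to 15021 to 42686 per library for the 3 neurofilament chains, 5025 to 6914 for Ina and 783 to 1686 for Prph. Counting error alone would then be at most 0.816% for the chains, 1.41% for Ina and 3.57% for Prph, if reads are taken as independent. The coefficient of variation among ACD mice was 11.2% for Nefl, 12.1% for Nefm, 9.99% for Nefh, 3.13% for Ina and 25.9% for Prph (n = 3). Among control mice it was 17.6% for Nefl, 25.4% for Nefm, 25.9% for Nefh, 15.6% for Ina and 27.7% for Prph (n = 3). The standard error of the Prph fold change was larger than that of 98.8% of the 4596 genes above 10 FPKM. For Nefm this share was 97.2%, for Nefh 97.1%, for Nefl 94.0% and for Ina 80.7%. Differences inside the intervals were not detectable with these mice: as ratios of ACD to control, the intervals ran 0.911 to 1.47 for Nefl, 0.813 to 1.48 for Nefm, 0.807 to 1.45 for Nefh, 0.909 to 1.30 for Ina and 0.733 to 1.70 for Prph.

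By FPKM the order was Nefl, Nefm, Nefh, Ina and Prph in each of the 6 libraries. Across libraries the ranges of Nefl, Nefm and Nefh ran into each other, while Ina lay below every Nefh value and Prph below every Ina value. The order of Nefl and Nefm rests on the length by which reads are divided. Exons of both Nefm forms together make 5782 bases, 2448 of which are outside Nefm-201. Dividing by the 3334 bases of Nefm-201 instead, a choice made after the data were seen, gave 714, 588 and 578 FPKM in ACD cords and 445, 561 and 738 FPKM in control cords. Nefm was then above Nefl in every library, with no correction for the 1108 exon bases that Nefm-202 shares with Nefl. Which of these lengths applies depends on how much Nefm-202 the cord holds, which gene-level values do not show.

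A filament is a co-polymer, so the proportions of its subunits were compared as well as their levels. The 5 genes summed to 1433, 1255 and 1178 FPKM in ACD cords, against 928, 1162 and 1423 FPKM in control cords. These sums overlapped (exact permutation test, two-sided, p = 0.4, where 3 against 3 cannot go below 0.1). Nefl made up 37.1% ± 1.26 of the sum in ACD and 35.8% ± 2.24 in control cords (SD, n = 3 each). Nefm made up 28.0% ± 0.882 in ACD and 28.5% ± 1.25 in control cords, and Nefh 23.8% ± 0.384 in ACD and 24.5% ± 1.31 in control cords. Ina came to 8.19% ± 1.05 in ACD and 8.40% ± 1.33 in control cords, and Prph to 2.89% ± 0.446 in ACD and 2.89% ± 0.495 in control cords. For the 5 shares the exact permutation p-values were 0.5 to 1, and 1 after adjustment over them.

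Set against other transcripts of neurons the picture was the same. The summed FPKM of the 5 genes was 0.947, 0.807 and 0.783 times that of 12 pan-neuronal genes in ACD cords, against 0.765, 0.956 and 0.966 times in control cords. The ratios overlapped (exact permutation test, two-sided, p = 0.7). The pan-neuronal sum itself was 1504 to 1555 FPKM in ACD cords and 1214 to 1474 FPKM in control cords, without overlap as deposited. Taken singly, 4 of the 12 genes did not overlap (28.6% of all genes). The median log2 fold change of the 12 genes depended on scaling. It was 0.145 as deposited, 0.048 with TPM scaling (each library brought to the same FPKM sum) and 0.004 after quantile normalization. None of the 12 genes passed in limma, where 3 had an unadjusted p under 0.05 (22.3% of all genes). Voom called 1 of them (7.24% of all genes). In whole cord, differences in the number of neurons, in the RNA per neuron and in scaling cannot be told apart.

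Nefm and Nefh varied together most closely. Their ratio, Nefh over Nefm, was 0.828, 0.864 and 0.853 in ACD cords and 0.866, 0.844 and 0.868 in control cords. It moved 1.05-fold between its extremes, while each of the genes moved 1.66-fold. Likeness was measured as the root mean square distance between log2 levels centred on each gene's mean over the 6 libraries. Of 4595 other protein-coding genes above 10 FPKM, Nefh was the nearest to Nefm and Nefm the nearest to Nefh, at a distance of 0.02, where the median gene lay 0.24 away. Nefh lies on another chromosome than Nefm, and no 31-base word of Nefh occurs in a transcript of another gene. The likeness is a description over 6 libraries with no test, and the genes of a library share its depth and dissection. No cause of the likeness was tested, GC content included.

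Nefl followed the other chains less closely. Nefm over Nefl was 0.777, 0.703 and 0.787 in ACD cords and 0.768, 0.736 and 0.896 in control cords, the highest being control 3. Nefm was number 101 and Nefh number 138 in likeness to Nefl. The 3 genes nearest to Nefl were Calb2, the calcium buffer calretinin, at a distance of 0.06, Pllp, a myelin membrane protein, at 0.06, and Tmeff2, a transmembrane protein, at 0.06. After Nefh, the nearest to Nefm were Unc5b, a netrin receptor, at 0.05 and Mag, a myelin adhesion protein, at 0.05. The same 2 genes followed Nefm in likeness to Nefh, both at 0.05.

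Ina had none of the other 4 genes among its nearest by this measure. It was flattest, and its nearest genes were Tomm34, of mitochondrial import, Prepl, a serine hydrolase, and Rab3a, a synaptic vesicle GTPase, at distances of 0.02, 0.03 and 0.03. None of the other 4 filament genes was closer to Ina than number 2594. Ranked from the chains instead, Ina was number 520 in likeness to Nefh, 668 to Nefm and 1947 to Nefl. Prph over Ina was 0.481, 0.327 and 0.278 in ACD cords and 0.253, 0.471 and 0.341 in control cords, the widest span of the 10 pairs. In all 10 pairs the ratios of ACD and control cords overlapped (exact permutation p of 0.5 to 1, and 1 adjusted over the 10 pairs).

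**Figure D3:**
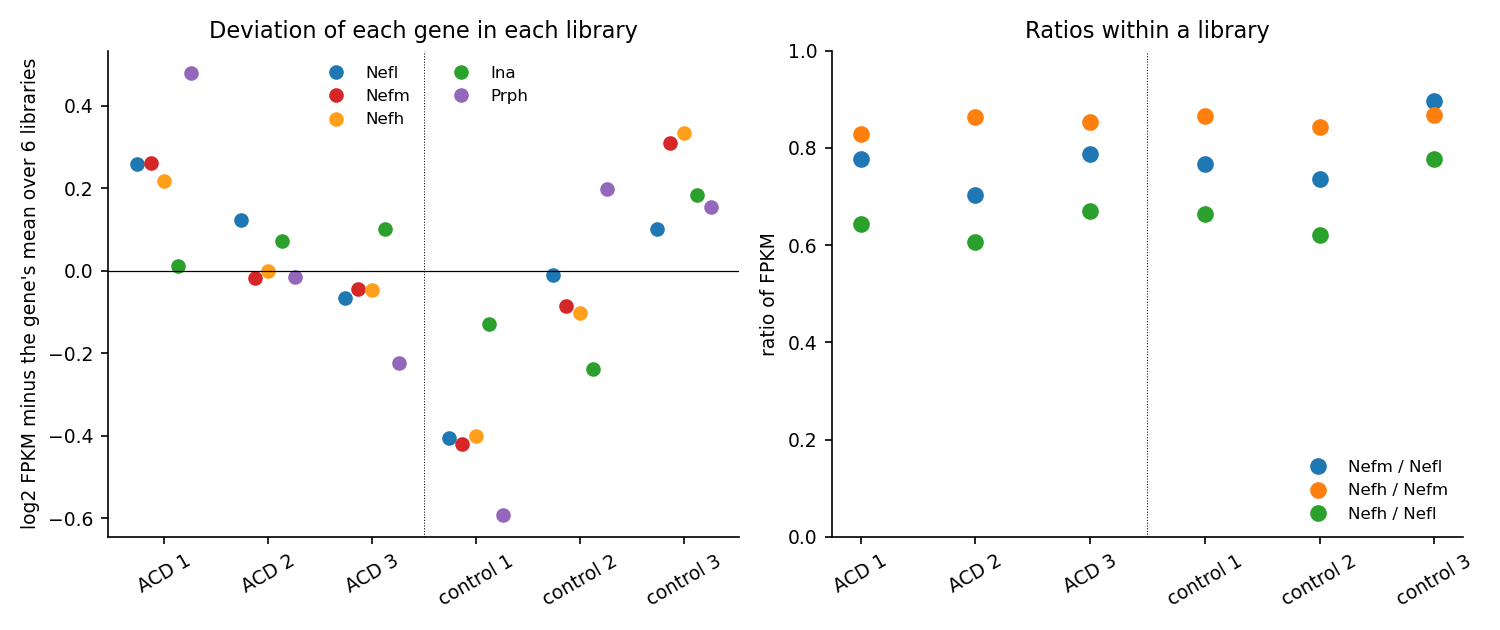
Left, log2 FPKM of each gene minus its mean over the 6 libraries, by library. Right, 3 ratios of FPKM within each library, on an axis from 0. Nefm and Nefh lie side by side in every library, and their ratio stays between 0.828 and 0.868.

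By distance Prph was nearer than Ina to Nefl (0.169 against 0.194) and about as near to Nefm (0.188 against 0.190). It was farther than Ina from Nefh (0.207 against 0.175). In likeness to Prph, Nefl was number 12, Nefm number 27, Nefh number 52 and Ina number 2796 of the 4595 genes. The median gene lay 0.335 from Prph, against 0.163 from Ina. Prph was nearest to Slc10a4, a transporter of cholinergic and monoaminergic vesicles, at a distance of 0.08, followed by Hoxb9, a homeobox gene of trunk segments, and Mcam, a cell adhesion molecule, both at 0.13. Slc10a4 stood at 15.5, 11.8 and 10.4 FPKM in ACD cords and 8.22, 13.9 and 14.8 FPKM in control cords, so that ACD 1 was highest and control 1 lowest, as for Prph. Hoxb9 was also lowest in control 1, at 31.5, 26.2 and 24.5 FPKM in ACD cords and 15.3, 31.9 and 26.5 FPKM in control cords. The summed FPKM of 12 motor and cholinergic neuron markers was 341, 289 and 259 in ACD cords and 243, 313 and 303 in control cords. The 6 libraries stood in the same order by this sum as by Prph, from ACD 1 at the top to control 1 at the bottom. Spp1, at 76.4 to 108 FPKM, and Sncg, at 69.6 to 97.7 FPKM, were the largest parts of the sum. Of the 12 markers only Chodl showed this order by itself. Chat was highest in control 3, at 7.93 FPKM, and lowest in ACD 3, at 4.81 FPKM. None of the 12 markers passed in limma, at an unadjusted p under 0.05 or in voom, and their median log2 fold change was 0.00. The vesicular acetylcholine transporter Slc18a3 stood at 29.1, 20.3 and 19.3 FPKM in ACD cords and 17.9, 20.98 and 27.0 FPKM in control cords.

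Since peripherin is also made by sensory neurons, markers of nerve roots and ganglia were read beside it. Of 12 primary sensory neuron markers 7 were tested and none passed in limma, at an unadjusted p under 0.05 or in voom. Their sum was 12.5 to 19.8 FPKM in ACD cords and 11.8 to 16.6 FPKM in control cords. Most of it was Calcb, at 7.57 to 17.0 FPKM over the 6 libraries. No other tested marker was above 2.26 FPKM, the Pou4f1 value in ACD 3. Mrgprd, a receptor of itch fibres, was listed at 0 in all libraries. Avil, a sensory neuron actin regulator, had the smallest p of the list, at 0.272 ± 0.0837 FPKM in ACD and 0.147 ± 0.0991 FPKM in control cords (log2 fold change 0.64, limma adjusted p = 0.386). The 10 Schwann cell and peripheral myelin genes summed to 330 to 467 FPKM in ACD cords and 155 to 244 FPKM in control cords, without overlap. None of the 10 passed in limma, where 5 had an unadjusted p under 0.05 (22.3% of all genes), while voom called 4 (7.24% of all genes). The blood genes, 5 in number, summed to 481 to 772 FPKM in ACD cords and 100.1 to 389 FPKM in control cords. None of them passed in limma, where 3 had an unadjusted p under 0.05 (22.3% of all genes), while voom called 2 (7.24% of all genes). The log2 fold change was positive for 4 of the 5. Hba-a2 went the other way, at 22.6 ± 3.97 FPKM in ACD and 29.8 ± 16.8 FPKM in control cords (-0.24, limma adjusted p = 0.779). The part of nerve root, Schwann cell or blood RNA in the levels of the filament genes was not tested.

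Among 14 other intermediate filament genes, 12 were tested, 1 rose and none fell. Where 1.81% of all genes rose and 2.53% fell, this was Gfap, the filament of astrocytes. Gfap stood at 587, 533 and 608 FPKM in ACD cords, against 382, 448 and 408 FPKM in control cords, without overlap (log2 fold change 0.48, SE 0.09, limma adjusted p = 0.0332). It passed in 6 of 15 alternative fits, with log2 fold changes of 0.25 to 0.54. Vim, vimentin, and Bfsp2, a lens filament protein, were chosen after their values were seen. Vim was at 22.1 ± 1.28 FPKM in ACD and 17.6 ± 5.21 FPKM in control cords (0.36, limma adjusted p = 0.311). Bfsp2 was at 14.03 ± 2.35 FPKM in ACD and 7.36 ± 2.47 FPKM in control cords and did not pass (0.97, limma adjusted p = 0.0883). Whether Gfap differed in response from the neuronal filament genes was not tested.

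**Figure D4:**
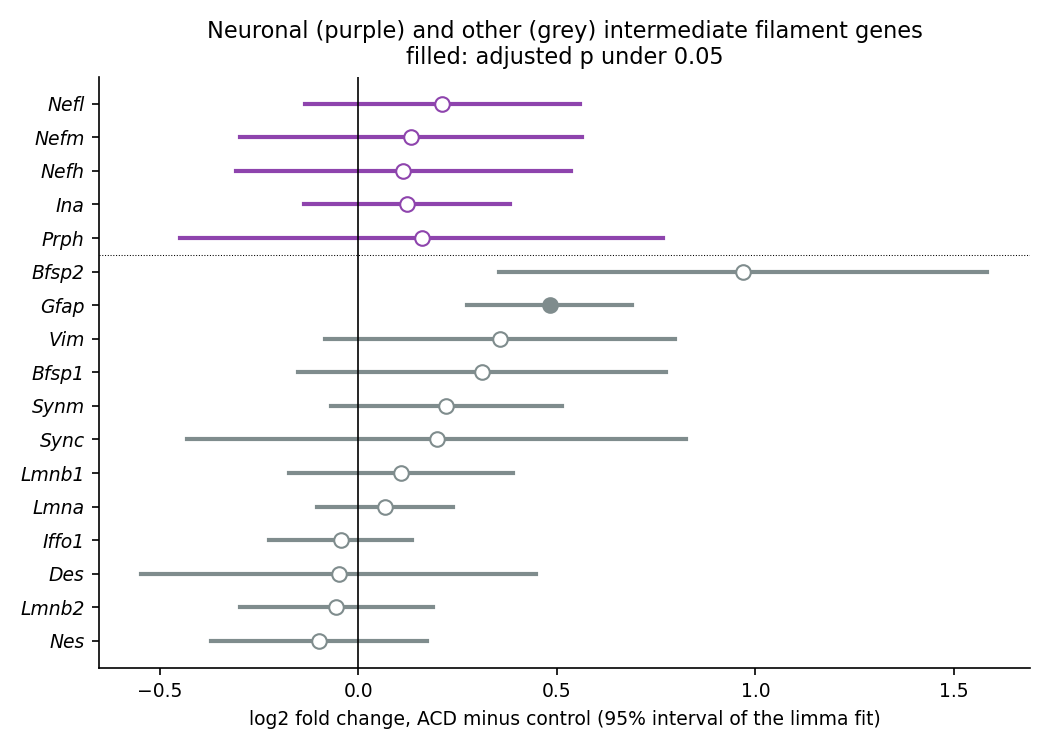
Log2 fold change of ACD minus control with its 95% interval from the limma fit, for the 5 neuronal filament genes (purple) and 12 other intermediate filament genes (grey), with filled points for an adjusted p under 0.05. All 5 neuronal intervals span 0, and Gfap is the filled point.

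Microtubules are a second polymer of the axon. Of 17 of its genes 3 rose and none fell (1.81% and 2.53% of all genes), with a median log2 fold change of 0.13. Tuba1a, an alpha-tubulin of growing neurons, stood at 388, 360 and 386 FPKM in ACD cords, against 207, 259 and 287 FPKM in control cords (0.60, SE 0.12, limma adjusted p = 0.0428). Stmn1 and Stmn3, which bind tubulin and promote microtubule turnover, rose as well. Stmn1 was at 194 ± 4.23 FPKM in ACD and 139.9 ± 16.6 FPKM in control cords (0.48, limma adjusted p = 0.0380), and Stmn3 at 586 ± 5.54 FPKM in ACD and 455 ± 35.2 FPKM in control cords (0.37, limma adjusted p = 0.0449). The calls were not stable: Stmn1 passed in 6 of 15 alternative fits, and Tuba1a and Stmn3 in 4 each, though all 3 kept a positive sign in the 15 fits. None of 10 spectrin, ankyrin and node genes passed in limma or voom, and their median was -0.03. Of these genes, 1 had an unadjusted p under 0.05 (22.3% of all genes). The adhesion protein Cntn1 had the smallest p of them, at 55.6 ± 1.79 FPKM in ACD and 48.8 ± 2.78 FPKM in control cords (0.19, limma adjusted p = 0.159).

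Genes that move, modify or remove filaments were read against the 4.34% of all genes that passed. Of 13 transport and linker genes 1 fell, the microtubule-actin linker Macf1, at 14.3 ± 0.153 FPKM in ACD and 18.5 ± 0.993 FPKM in control cords (-0.36, limma adjusted p = 0.0298). It passed in 8 of 15 alternative fits, and was at -0.05 in the fit nearest to 0. The list median was -0.04. None of 13 kinase and phosphatase genes passed in limma, where 5 had an unadjusted p under 0.05 (22.3% of all genes). Voom called 1 of the 13 (7.24% of all genes), and their median was 0.11. Mapk3, the kinase ERK1, had the smallest p, at 85.4 ± 3.72 FPKM in ACD and 69.8 ± 4.81 FPKM in control cords (0.29, limma adjusted p = 0.0730). Of 13 genes of filament turnover and mRNA binding, with a median of 0.09, 1 rose and 1 fell. The one that rose was Hspb1. Hspb1, a small heat shock protein, was at 47.2 ± 4.52 FPKM in ACD and 30.7 ± 3.57 FPKM in control cords (0.62, limma adjusted p = 0.0274). It passed in 7 of 15 alternative fits.

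The axon injury list had 2 of 10 genes higher and none lower (1.81% and 2.53% of all genes), with a median of 0.28. Sprr1a, a cornified envelope protein that injured neurons express, was at 1.96 ± 0.728 FPKM in ACD and 0.142 ± 0.0746 FPKM in control cords (3.08, limma adjusted p = 0.00923). Gap43, a growth cone protein, was at 94.9 ± 10.9 FPKM in ACD and 68.1 ± 1.97 FPKM in control cords (0.47, limma adjusted p = 0.0371). Sprr1a passed in all 15 alternative fits and Gap43 in 4. These results were known when the list was made and give it no independent support.

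The dissections held the other cell types of the cord, as their lists show. Of 12 pan-neuronal genes, with a median of 0.15, Syp came nearest to passing (0.48, limma adjusted p = 0.0582). Ache had the smallest p of the motor list (0.20, limma adjusted p = 0.304). None of 12 oligodendrocyte, 10 astrocyte, 10 endothelial or 8 meningeal genes passed in limma, with medians of 0.30, 0.11, -0.18 and 0.39. In these lists limma gave an unadjusted p under 0.05 to 3, 2, 2 and 4 genes in that order (22.3% of all genes). Voom called 0, 0, 1 and 4 genes of these lists, against 7.24% of all genes. The smallest p-values were those of Cldn11 (0.36, limma adjusted p = 0.133), Gjb6 (0.30, adjusted p = 0.118), Slco1a4 (-0.71, adjusted p = 0.0788) and Col3a1 (0.98, adjusted p = 0.0767). Among the blood genes it was Hbb-bs (1.72, adjusted p = 0.131). The microglial list, with a median of 0.28, had 2 of 10 genes higher (1.81% of all genes). These were Olfml3 (0.57, adjusted p = 0.0384) and Tmem119 (0.53, adjusted p = 0.0394), all from limma. Olfml3 passed in 6 and Tmem119 in 5 of 15 alternative fits. The oligodendrocyte sum was 7615 to 9026 FPKM in ACD cords and 5114 to 7693 FPKM in control cords. It was lowest in control 1, like 4 of the filament genes. Control 1 was also lowest for the other intermediate filament, microtubule, transport, kinase, pan-neuronal, motor, astrocyte, microglial and blood sums. It was not lowest for the spectrin, turnover, sensory, Schwann cell, endothelial, meningeal or axon injury sums. Over all genes its FPKM summed to 279996, the lowest of the 6 libraries.

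**Figure D5:**
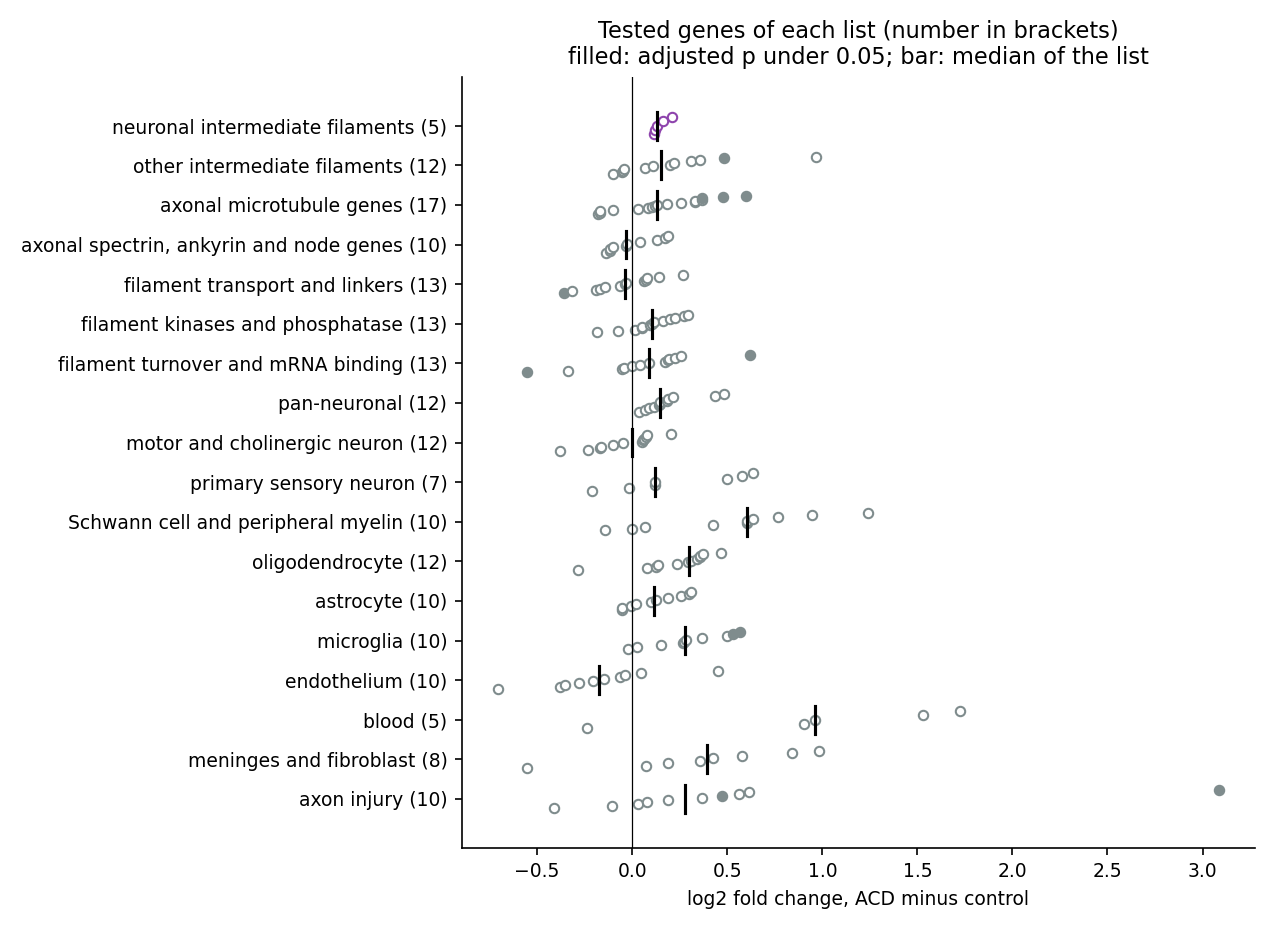
Log2 fold change of ACD minus control for the tested genes of the 18 lists, with their number in brackets, the median as a bar and filled points for an adjusted p under 0.05. The 5 neuronal filament genes lie between 0.11 and 0.21, inside the range of the microtubule genes.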

How the data were processed

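Total RNA of 6 cervical cords was sequenced. The authors deposited 1 table of FPKM values per library for 54532 Ensembl genes. Per the submitters' processing notes, DESeq2 1.16.1, featureCounts 1.5.0-p3 and HISAT2 2.0.5 are named along with build mm10, with no role stated. Strand and gene annotation are not given in the labels. Symbols matched 54409 genes, and GENCODE M21 (GRCm38) gave exon lengths, GC content and positions for 54495.

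Reads were recovered from FPKM, exon length and the size of each library as read from the steps of low values; 96.9% of values above 0 came within 0.05 of a whole number. Library sizes read in this way were 17346319 to 20245578 reads in ACD and 16916601 to 18583995 in control libraries. Recovered reads summed to 1.04 to 1.07 times these sizes in ACD and 0.976 to 1.03 times in control libraries. The reason for this was not tested. Limma 3.58.1 in R 4.3.3 (trend and robust settings) was fitted on log2(FPKM + 0.1) to genes averaging 0.1 FPKM or more, with Benjamini-Hochberg adjustment and a threshold of 0.05. Fold changes are on this log2(FPKM + 0.1) scale, which understates those of low genes. Sums, shares and ratios were tested with exact permutation in scipy 1.17.1.

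Members and the 18 lists were chosen with earlier results of these data known. Genes named are the 5 members, up to 4 passing genes of each list, in order of p, or the one with the smallest p, and the 3 genes of most like pattern for each member. Others were chosen after their values were seen. Some genes that this rule names are not reported here. Alternatives covered pseudocount, filter, scaling, length and GC content, replicate block, voom on recovered reads, eBayes settings and leaving out each library.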

Additional observations from a re-analysis of the deposited data

How the results depend on the processing

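In all 80 fits of the 5 genes none passed, with adjusted p-values of 0.0865 to 0.972, so the missing calls did not depend on a setting tried. Directions did. After quantile normalization the log2 fold changes were -0.021 for Nefl, -0.148 for Nefm, -0.153 for Nefh and -0.067 for Ina; the median of genes above 10 FPKM was 0.00 there, against 0.11 as deposited. Leaving out 1 library gave 0.06 to 0.31 for Nefl, -0.045 to 0.319 for Nefm, -0.058 to 0.308 for Nefh, 0.03 to 0.24 for Ina and -0.095 to 0.311 for Prph. For the summed FPKM the difference was -3.76 to 244. For the shares, in percentage points, it was 0.195 to 2.43 for Nefl, -0.872 to 0.257 for Nefm, -1.20 to 0.030 for Nefh, -0.745 to 0.534 for Ina and -0.245 to 0.283 for Prph. The pan-neuronal ratio kept its sign in its alternatives, as did the sum with TPM scaling, and the sum and shares with the length of the main transcript.

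Of all genes 927 passed, 386 higher and 541 lower. Without a filter 556 passed, after quantile normalization 568, with trends on exon length and GC content taken out 1397 (908 higher, 489 lower), with voom on recovered reads 1546, without trend and robust settings 420 (96 higher, 324 lower) and with 1 library left out 180 to 627. TPM scaling gave 205 higher and 695 lower calls. With the replicate block 181 passed, and no filament gene did. Deviations of same-numbered libraries correlated at -0.03, 0.02 and 0.00 across genes. With 3 libraries a group this cannot show whether same-numbered mice were paired, and the labels do not say. Counting error of the filament genes was at most 3.57%, below the spread between control mice of each gene. The causes of the changes with settings were not tested.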
